A study of Mus musculus with 12 samples.

Results

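CCCGGG sites that lay close together and were unmethylated in control adenomas were compared between 4 genotypes of mouse colonic adenoma. Members of the class were autosomal sites with at least 100 reads in 11 of the 12 adenomas (all but the shallow double heterozygous adenoma 3), a mean adjusted methylation level of the 3 control adenomas below 5%, and at least 3 other listed CCCGGG sites within 500 bp. The rule gave 2772 members, out of 16868 autosomal sites with that depth and 173449 sites listed. Since the control levels chose the members, every value against control is a description and carries no test. The tests compare the mutant genotypes, whose levels the rule did not use.

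Each genotype had 3 adenomas from C57BL/6J mice aged 150 to 160 days. The genotypes were Tet1-/- Tdg+/+ ApcMin/+ (Tet1 null), Tet1+/- TdgN151A/+ ApcMin/+ (double heterozygous), Tet1+/+ TdgN151A/+ ApcMin/+ (Tdg heterozygous) and Tet1+/+ Tdg+/+ ApcMin/+ (control). All of them, control included, carried the Min allele of Apc, a truncating mutation of a Wnt pathway inhibitor that predisposes mice to intestinal tumours. The mutant mice came from crosses and whole dissected adenomas were used, so each level averages over all cell types in the tissue. The labels do not say whether adenomas of a genotype came from separate mice, and p-values therefore measure the spread between these adenomas.

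Dense stretches of CpG, most of them CpG islands at gene starts, are usually kept free of DNA methylation in normal cells. Tet1 is a dioxygenase that binds CpG-rich DNA and oxidises 5-methylcytosine. Tdg is a glycosylase that removes the more oxidised forms, after which base excision repair restores an unmodified cytosine, and the N151A substitution inactivates its catalytic site. In colorectal tumours some CpG islands gain methylation. CCCGGG is read by a pair of restriction enzymes: SmaI cuts it when its CpG is unmethylated and leaves blunt ends, and XmaI then cuts the methylated copies that remain, so that each read carries the state of its site.

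What a dense cluster looks like can be seen in gene starts whose spacing of CCCGGG sites matched the listed sites at 1 place in the genome. The promoters below are RefSeq sequences of the GRCm38.p6 build (250 bases before to 50 after the gene start, 5′ to 3′ on the gene's strand), with each CCCGGG in capitals. The motif equals its own reverse complement, so both strands are covered by 1 search. Of 32817 promoters of this length, 13.5% held CCCGGG and 0.481% held 3 or more copies. Slc7a10 (chr7:35186135-35186434, + strand) is shown because its run of sites held the member with the largest difference. That member, chr7:35971584 (mm9), lies 175 bp past the last marked site, outside the printed sequence. Zfp335os (chr2:164911183-164911482, + strand) held a member called in the tests. Ctnna2 (chr6:77979618-77979917, - strand) is shown because its member was higher in Tet1 null adenomas without passing a test. Dnmt3a (chr12:3806730-3807029, + strand) is shown because its members stayed at or near 0. Of the marked sites, 1 of 4 in Slc7a10, 3 of 3 in Zfp335os, 1 of 3 in Ctnna2 and 2 of 3 in Dnmt3a were members.
Slc7a10 promoter: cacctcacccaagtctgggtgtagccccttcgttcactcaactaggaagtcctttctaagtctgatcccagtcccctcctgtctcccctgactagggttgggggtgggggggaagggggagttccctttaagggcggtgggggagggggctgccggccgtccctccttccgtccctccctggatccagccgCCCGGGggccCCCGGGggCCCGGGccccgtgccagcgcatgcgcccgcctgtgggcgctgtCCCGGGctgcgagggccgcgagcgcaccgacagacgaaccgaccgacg
Zfp335os promoter: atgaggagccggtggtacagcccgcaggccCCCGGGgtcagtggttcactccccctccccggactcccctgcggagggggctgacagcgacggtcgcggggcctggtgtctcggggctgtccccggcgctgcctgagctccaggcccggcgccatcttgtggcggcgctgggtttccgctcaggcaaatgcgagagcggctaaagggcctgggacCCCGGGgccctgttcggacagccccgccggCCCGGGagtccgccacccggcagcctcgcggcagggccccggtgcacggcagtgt
Ctnna2 promoter: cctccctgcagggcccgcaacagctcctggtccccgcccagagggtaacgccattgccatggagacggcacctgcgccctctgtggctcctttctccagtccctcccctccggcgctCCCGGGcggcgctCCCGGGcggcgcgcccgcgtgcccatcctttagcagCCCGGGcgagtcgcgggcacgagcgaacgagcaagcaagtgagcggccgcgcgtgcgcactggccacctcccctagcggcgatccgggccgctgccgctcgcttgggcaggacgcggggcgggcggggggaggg
Dnmt3a promoter: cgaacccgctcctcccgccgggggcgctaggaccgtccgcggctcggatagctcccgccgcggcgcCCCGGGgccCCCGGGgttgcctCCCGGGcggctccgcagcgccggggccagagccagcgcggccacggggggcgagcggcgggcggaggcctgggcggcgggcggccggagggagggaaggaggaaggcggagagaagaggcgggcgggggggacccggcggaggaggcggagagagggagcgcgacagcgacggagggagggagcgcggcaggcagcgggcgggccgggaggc

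Members were grouped in 1221 runs of sites with no more than 500 bp between listed neighbours. A run with members held 4 to 13 listed sites (median 5), of which 1 was a member in 327 runs, 2 in 518 runs and 3 to 9 in 376 runs. Most members, 1643, had 3 neighbours within 500 bp, 694 had 4, 284 had 5 and 151 had 6 to 9. Density and low methylation went together in control adenomas: of 2929 sites with 3 or more neighbours at this depth, 94.6% were below 5%, against 54.9% of 13761 sites with 1 or 2 neighbours. The share below 5% was 68.0% among the 178 sites with no neighbour.

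Total reads per adenoma were 2349576 in double heterozygous adenoma 3 and 8213211 to 18865833 in the others. The median depth at members was 101 reads in that shallow adenoma, where 1373 members had under 100 reads, and 447 to 1001.5 reads in the other 11. At 101 reads a count of 0 allows a level of up to 2.97% (3 reads of the total, counting error only), and at 1001.5 reads up to 0.300%. The spiked unmethylated standard set the scale of low values. Its raw level over both of its sites was 0.10 to 1.43% in Tet1 null adenomas, 0.56 to 1.99% in double heterozygous, 0.08 to 0.63% in Tdg heterozygous and 0.36 to 1.51% in control adenomas. The methylated standard read 98.7 to 99.3%.

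Members stayed close to 0 in all genotypes, and were somewhat higher in Tet1 null adenomas than in either heterozygous genotype. The mean adjusted level over the 2772 members was 0.316%, 0.380% and 0.375% in the Tet1 null adenomas. It was 0.232%, 0.286% and 0.262% in the double heterozygous, 0.256%, 0.241% and 0.235% in the Tdg heterozygous and 0.182%, 0.226% and 0.203% in the control adenomas. All 3 Tet1 null values lay above all 9 others, while the heterozygous genotypes overlapped each other. These means lay below both sites of the unmethylated standard in the same library in 9 of 12 adenomas. Tet1 null adenoma 3, with a standard of 0.10 and 0.20%, had the highest level by summed reads, 0.414%. Its exact 95% binomial interval of 0.403 to 0.425% covers counting error of the pooled reads only, not the spread between sites or adenomas.

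Tet1 null adenomas averaged 0.357 ± 0.0353% (SD, n = 3), against 0.252 ± 0.0202% in the 6 heterozygous adenomas together, a difference of 0.105 percentage points. An exact two-sided permutation test gave p = 0.0238, the smallest that 3 against 6 allows, and p = 0.0635 after Benjamini-Hochberg adjustment over the 8 comparisons of single values per adenoma, so the difference failed the correction. In male adenomas alone, judged by reads on the Y chromosome, it was 0.0928 points. These were 2 Tet1 null and 4 heterozygous adenomas, of which 3 were double heterozygous and 1 was Tdg heterozygous. Against Tdg heterozygous adenomas (0.244 ± 0.0105%) the Tet1 null difference was 0.113 points, and against double heterozygous adenomas (0.260 ± 0.0268%) it was 0.0972 points, each with an exact p of 0.10, the smallest possible for 3 against 3. The double heterozygous minus Tdg heterozygous difference was 0.0160 points (exact p = 0.50).

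Most members showed no methylated read in a given adenoma: the share with at least 1 was 11.7% in the shallow adenoma and 27.8 to 45.1% in the others. The median member was at 0 in every adenoma, and 588 members (21.2%) had no methylated read in any of the 12. Altogether 2666 members (96.2%) were below 5% in every adenoma, and 99 reached 5% in at least 1 mutant adenoma. A level of 5% or more in all 3 adenomas of a genotype was found at 17 members in Tet1 null, 2 in double heterozygous and 2 in Tdg heterozygous adenomas. Members at 5% or more numbered 29, 41 and 39 in the Tet1 null, 12, 28 and 30 in the double heterozygous and 18, 17 and 9 in the Tdg heterozygous adenomas, with 14, 12 and 9 in control. The share was 1.31 ± 0.232% in Tet1 null adenomas and 0.685 ± 0.304% in heterozygous ones (n = 3 and 6; exact permutation p = 0.0476, adjusted p = 0.0952), and the highest of the heterozygous values came from the shallow adenoma. Of all members, 78 (2.81%) were higher by at least 1 percentage point in the Tet1 null mean than in the heterozygous mean, and 23 were lower by as much. Among unmethylated sites with 1 or 2 neighbours 8.66% were higher by at least 1 point. The mean share of those sites at 5% or more was 4.79% in Tet1 null and 1.93% in heterozygous adenomas.

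**Figure D1:**
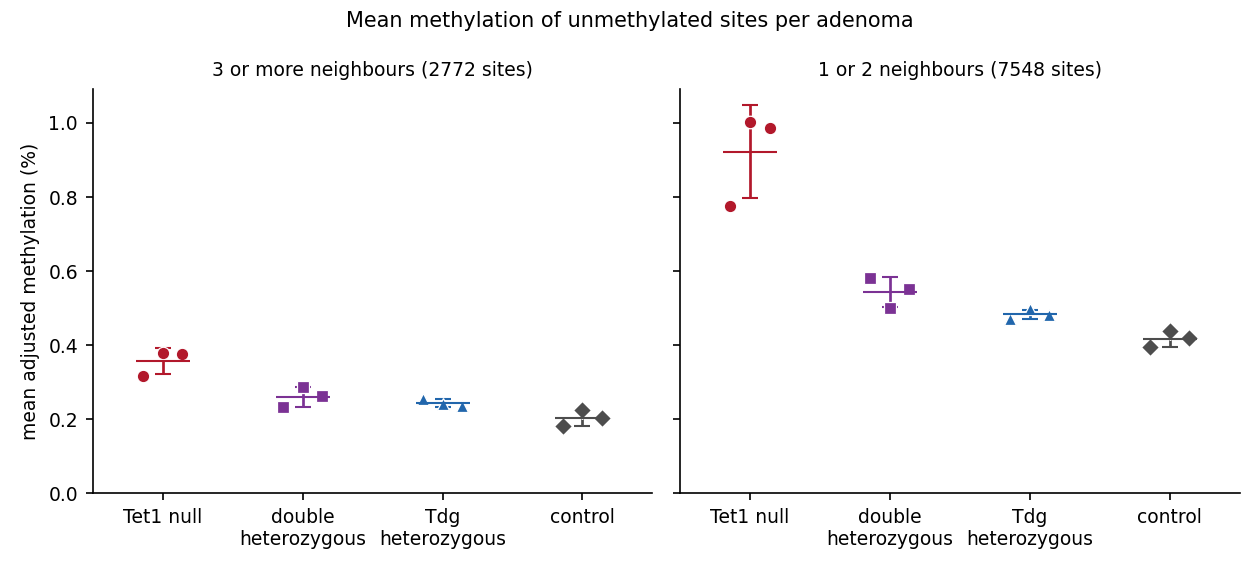
Mean adjusted methylation (%) per adenoma over the members (left) and over unmethylated sites with 1 or 2 neighbours (right); points are adenomas, and the long bar with whiskers is the mean and SD of 3. The 3 Tet1 null adenomas lie at 0.316 to 0.380% in the left panel and 0.777 to 1.00% in the right one, above all others in both.

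The class was set beside unmethylated sites in less dense surroundings, chosen by the same depth and control limit. The 7548 sites with 1 or 2 neighbours averaged 0.777%, 1.00% and 0.987% in Tet1 null adenomas and 0.470 to 0.581% in the heterozygous ones. The excess of these sites over the members was 0.565 ± 0.0908 points in Tet1 null adenomas (n = 3) and 0.262 ± 0.0507 points in heterozygous adenomas (n = 6). It was thus 0.304 points larger in Tet1 null adenomas, with no overlap between the groups (exact permutation p = 0.0238; adjusted p = 0.0635, which fails the correction). For the 121 sites with no neighbour the excess over members was 0.250 ± 0.0943 points in Tet1 null and 0.145 ± 0.0755 points in heterozygous adenomas, and the groups overlapped (exact permutation p = 0.167, adjusted p = 0.190).

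By number of neighbours, the Tet1 null minus heterozygous difference was 0.210 points with no neighbour (121 sites), 0.489 points with 1 and 0.277 points with 2. Among members it was 0.115 points with 3, 0.0732 points with 4, 0.159 points with 5 and 0.0431 points with 6 or more. The value at 5 neighbours turned on a single member: without chr7:35971584 (mm9) it was 0.0541 points. As a ratio the Tet1 null mean was 1.53 times the heterozygous mean with no neighbour, 1.82 times with 1 and 1.74 times with 2. Among members the ratio was 1.43 with 3, 1.31 with 4, 1.69 with 5 and 1.23 with 6 or more. Without chr7:35971584 the ratio with 5 was 1.26. The levels did not run one way over the whole series: the Tet1 null mean was 0.607% with no neighbour, 1.09% with 1 and 0.228% with 6 or more, and the heterozygous mean was 0.397%, 0.600% and 0.185% at the same counts. Control adenomas averaged 0.315%, 0.482% and 0.139% there. Single Tet1 null and heterozygous adenomas overlapped with no neighbour (lowest Tet1 null 0.490%, highest heterozygous 0.525%), with 4 (0.249% and 0.255%) and with 6 or more (0.216% and 0.227%).

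**Figure D2:**
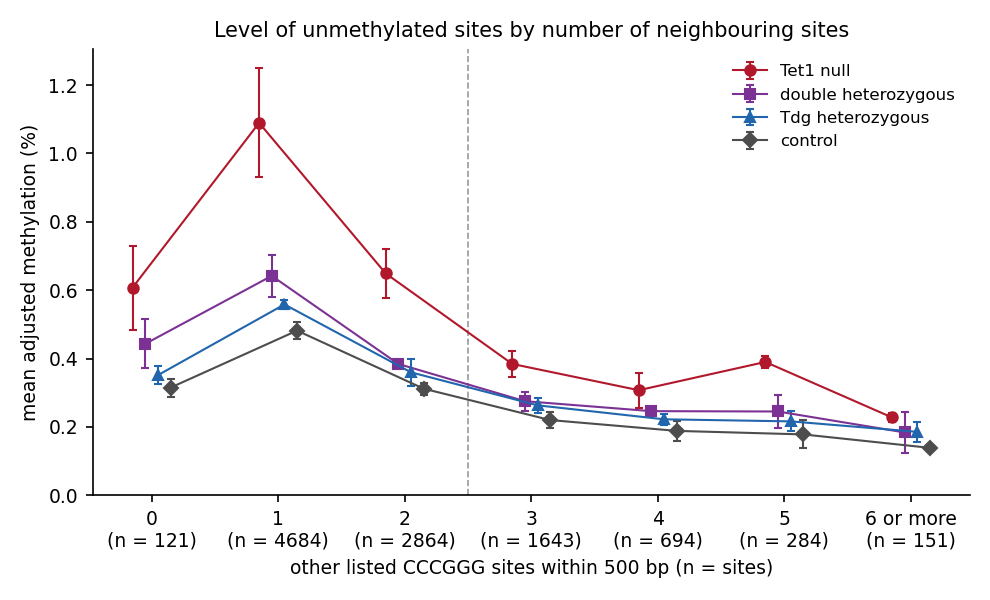
Mean adjusted methylation (%) of unmethylated sites by number of other listed CCCGGG sites within 500 bp, with the mean and SD of 3 adenomas per genotype; members lie right of the dashed line. The Tet1 null mean is highest at every count of neighbours, though single adenomas overlap at 0, 4 and 6 or more; the gap to the mean of the 6 heterozygous adenomas is 0.210 points with no neighbour, 0.489 points with 1 neighbour and 0.0431 points with 6 or more.

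The same was compared inside runs, so that both kinds of site came from the same stretch of DNA. In runs that held both, 1086 unmethylated sites with under 3 neighbours, here called outer sites, were set against 1323 members. Outer sites averaged 0.692%, 0.748% and 0.682% in Tet1 null and 0.369 to 0.441% in heterozygous adenomas. The members of these runs averaged 0.310%, 0.350% and 0.358% in Tet1 null and 0.196 to 0.280% in heterozygous adenomas. Outer sites exceeded members by 0.368 ± 0.0389 points in Tet1 null adenomas and 0.180 ± 0.0387 points in heterozygous adenomas, a difference of 0.188 points without overlap (exact permutation p = 0.0238, adjusted p = 0.0635). It was 0.0492 points (p = 0.119, exact) among sites with at least 300 reads.

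Site by site, few members were called, and each call was higher in Tet1 null adenomas. Members lay near 0 in the heterozygous adenomas (mean 0.252%), which left little room for a lower level to be called. Of the 2183 members with methylated reads enough to test, 20 were higher in Tet1 null than in the mean of both heterozygous genotypes and 0 were lower (edgeR quasi-likelihood test, adjusted p under 0.05 over all 14964 tested autosomal sites). At an unadjusted p under 0.05, 6 members were lower, where 0.428% of all tested sites were, and limma called 0 lower. Over all tested sites 2.3% were called, while the 20 members are 0.916% of those tested, and 204 of 6301 sites with 1 or 2 neighbours (3.24%) were called. Against Tdg heterozygous adenomas 16 members were called, all higher, where 2.05% of all tested sites were called. Against double heterozygous adenomas 7 were called, all higher, where 0.895% of all tested sites were called. These comparisons share the Tet1 null adenomas. Of the tested members, 218 had methylated reads in Tet1 null adenomas alone and entered the test only through that genotype, and 2 of the 20 were among them; with methylated reads required in another genotype the counts were 18, 15 and 7.

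The choice of 1 library or of the test moved these counts. In place of 20, the test gave 10 without Tet1 null adenoma 3, all among the 20. Limma on log2 ratios of counts called 5, all among the 20, and limma on the adjusted level called 9, of which 6 were among the 20. In place of 16, there were 10 without Tet1 null adenoma 3 and 9 without Tdg heterozygous adenoma 1 or 2, all among the 16. Without Tdg heterozygous adenoma 3 there were 12, of which 1 was lower in Tet1 null adenomas. In place of 7, there were 4 without Tet1 null adenoma 2 and 2 without double heterozygous adenoma 2, all among the 7, while limma on the adjusted level called 4, of which 1 was among the 7. Without any test, all 3 Tet1 null values lay above all 6 heterozygous values at 59 tested members (2.70%), where 3.84% of all tested sites did so. They lay below all 6 at 3 members, where 0.354% of all tested sites did so. The median difference was 0.0133 points over tested members and 0.0400 points over all tested sites.

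The 20 members lay on 12 chromosomes, with differences of the mean level of 0.177 to 29.9 points (median 2.75). Tet1 null and heterozygous values did not overlap at 14 of them, but these 20 were picked for a difference in the same values. Tet1 null values lay above all heterozygous ones at 2.70% of tested members and 3.84% of all tested sites. By density, 15 of 1313 tested members with 3 neighbours were called, 4 of 536 with 4, 1 of 218 with 5 and 0 of 116 with 6 or more. Of all tested sites 2.3% were called. The mean difference over the 2752 members outside these 20 was 0.0631 points.

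The largest difference was at chr7:35971584 (mm9), in the run that matched the Slc7a10 promoter shown above. Slc7a10 encodes a transporter of small neutral amino acids. The level there was 51.4%, 29.6% and 26.7% in Tet1 null adenomas, against 5.81%, 6.44% and 14.7% in double heterozygous, 3.29%, 3.25% and 2.25% in Tdg heterozygous and 2.02%, 6.04% and 3.32% in control adenomas. Even the lowest Tet1 null value lay above the highest of the other genotypes, which was read from only 22 reads. The mean was 35.9 ± 13.5% in Tet1 null and 5.95 ± 4.59% in heterozygous adenomas (n = 3 and 6; adjusted p = 3.1e-07, edgeR), and 12 of 12 fits that left out 1 adenoma kept the call. The member 175 bp before it, inside the promoter, read 0.97%, 3.99% and 1.23% in Tet1 null adenomas and 0 to 1.11% in heterozygous ones, and did not pass (adjusted p = 0.249, edgeR).

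At chr2:69561183 (mm9) methylated reads were nearly limited to Tet1 null adenomas. The level was 1.04%, 5.41% and 8.37% in Tet1 null, 0 in all 3 double heterozygous, 0.08%, 0 and 0.05% in Tdg heterozygous and 0.13%, 0 and 0 in control adenomas. This rested on 21 of 1981, 138 of 2593 and 99 of 1090 reads in the Tet1 null adenomas and on at most 2 of 2439 reads in a heterozygous one. The adjusted p was 2.7e-16 (edgeR), 0.00306 with limma on log2 ratios and 0.00954 with limma on the adjusted level, and it passed whichever adenoma was left out. The other members of its run, chr2:69561365 and chr2:69561515, had no methylated read in any adenoma.

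At chr15:80118556 (mm9) the level was 31.6%, 12.02% and 11.1% in Tet1 null, 3.42%, 2.38% and 0 in double heterozygous, 1.70%, 1.85% and 1.10% in Tdg heterozygous and 1.67%, 6.28% and 2.97% in control adenomas (adjusted p = 5.5e-07, edgeR). All Tet1 null values were above all others, and the call against both heterozygous genotypes held whichever adenoma was left out. It did not hold with limma on the adjusted level (adjusted p = 0.214). At chr11:97407616 it was 11.1%, 11.5% and 18.6% in Tet1 null adenomas and 2.30 to 4.57% in heterozygous ones, and the call was lost without Tet1 null adenoma 3 (adjusted p = 0.299, edgeR). Smaller differences of the same shape were found at chr4:46052805, with 5.64%, 10.4% and 5.06% in Tet1 null against 0.41 to 2.99% in heterozygous adenomas. At chr12:85104706 the values were 4.34%, 7.75% and 5.46% in Tet1 null and 0.35 to 1.26% in heterozygous adenomas. Each of these sets was free of overlap, and the last 2 sites kept their call against both heterozygous genotypes whichever adenoma was left out. Limma on the adjusted level did not call chr4:46052805 (adjusted p = 0.0753). Against double heterozygous adenomas alone chr4:46052805 was not called (adjusted p = 0.115, edgeR). There chr12:85104706 kept its call in 9 of 12 fits that left out 1 adenoma.

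Some other calls rested on 1 or 2 adenomas or on few methylated reads. In the run that matched the promoter of Zfp335os, a transcript from the strand opposite Zfp335, the called member chr2:164736931 read 0, 0 and 2.09% in Tet1 null adenomas and 0 in the other 9. The called member chr2:164737143 of the same run read 0, 0.06% and 1.05% in Tet1 null adenomas and 0 elsewhere. Only Tet1 null adenoma 3 stands out at both, and these are the 2 called members that entered the test only through Tet1 null reads. Neither was called without Tet1 null adenoma 3, and each had an adjusted p of 0.708 with limma on the adjusted level. At chr11:113480278 the Tet1 null values were 0.13%, 0.40% and 0. At chr5:114724636, chr5:114724830 and chr3:105256142 the shallow double heterozygous adenoma, with 30, 34 and 75 reads, lay within or above the Tet1 null range. At chr5:114724636 the deeper double heterozygous adenoma 1 also lay within that range, at 3.36% (23 of 635 reads). Of the 20 calls, 8 held whichever adenoma was left out. So did 8 of the 16 calls against Tdg heterozygous and 1 of the 7 against double heterozygous adenomas.

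**Figure D3:**
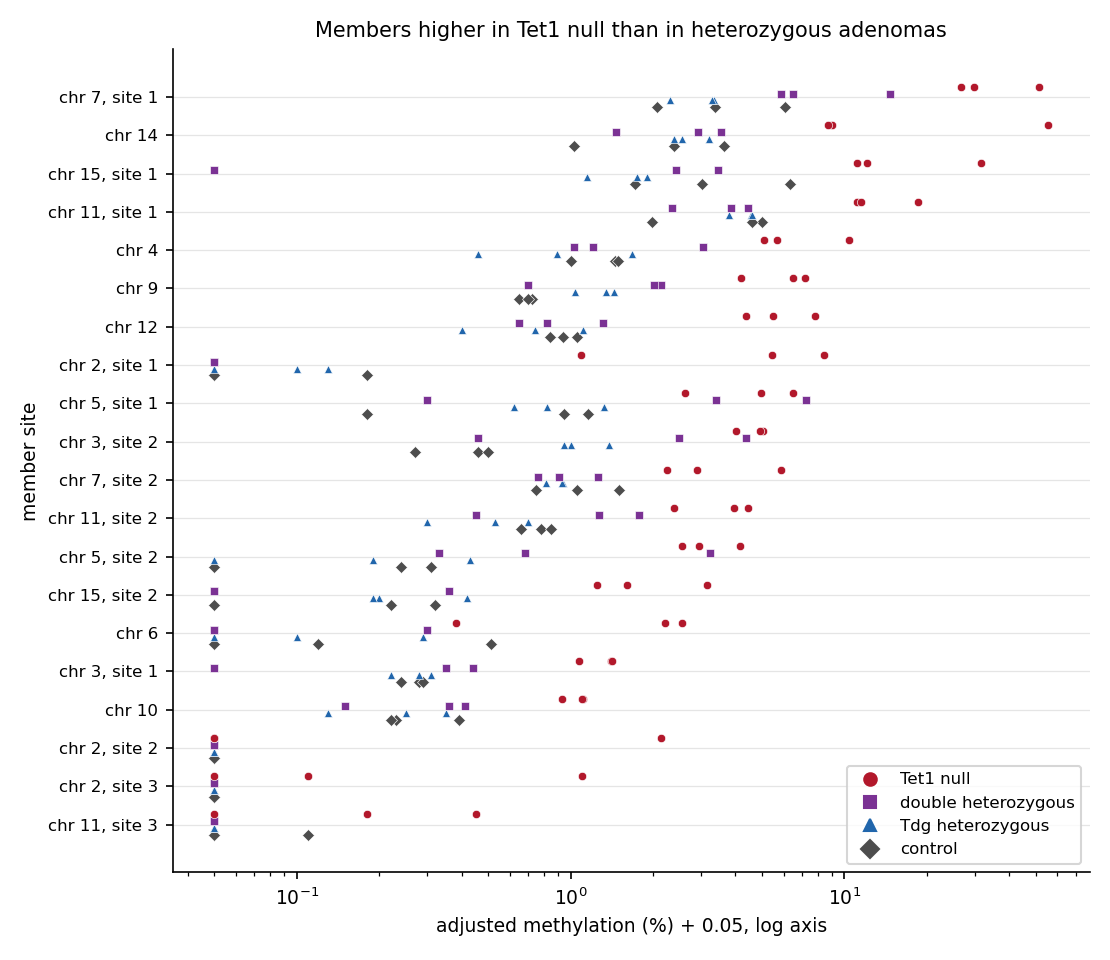
Adjusted methylation (%) plus 0.05, on a log axis, of the 20 members called higher in Tet1 null than in heterozygous adenomas; each row is a member and each point an adenoma, and points at the left edge are 0. Tet1 null points lie right of all heterozygous points in 14 rows, and in the 3 lowest rows at least 1 Tet1 null adenoma is at 0. The rows were picked for a difference in these same values.

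The called members fell in 18 runs, 16 with 1 call and 2 with 2. The 25 other tested members of these runs were not called. These runs were picked for holding a called member, so counts within them do not compare members with other sites. Among the 23 tested sites of these runs outside the class 6 were called, in 4 runs, where 2.3% of all tested sites were called. On chromosome 14 a single member, chr14:109311560, stood beside 2 such sites. It read 55.5%, 9% and 8.64% in Tet1 null adenomas and 1.42 to 3.48% in heterozygous ones, and was no longer called without Tet1 null adenoma 1 (adjusted p = 0.0898, edgeR). The site 91 bp before it read 78.7%, 33.7% and 12.4% in Tet1 null, 9.64%, 3.87% and 6.67% in double heterozygous, 5.85%, 6.89% and 2.14% in Tdg heterozygous and 8.59%, 2.07% and 4.21% in control adenomas. The site 383 bp before it read 80.0%, 39.0% and 31.3% in Tet1 null, 15.9%, 5.27% and 1.01% in double heterozygous, 4.27%, 2.96% and 1.44% in Tdg heterozygous and 2.72%, 2.69% and 2.73% in control adenomas. Tet1 null adenoma 1 was the highest at all 3 sites; the Tet1 null mean without it was 8.82% at the member, against 24.4% with it, 23% against 41.6% at the site 91 bp before and 35.2% against 50.1% at the site 383 bp before.

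On chromosome 10 the level dropped along the run. The site chr10:79810538, with 1 neighbour, averaged 8.07% in Tet1 null, 3.15% in double heterozygous and 2.31% in Tdg heterozygous adenomas (adjusted p = 0.0578, edgeR). The called member 253 bp on averaged 0.997% in Tet1 null, 0.257% in double heterozygous and 0.193% in Tdg heterozygous adenomas. The member 350 bp further averaged 0.0200% in Tet1 null adenomas and 0 in both heterozygous genotypes. On chromosome 7 the called member chr7:128535708, at 3.62% in Tet1 null, 0.927% in double heterozygous and 0.843% in Tdg heterozygous adenomas, lay between called sites with 1 and 2 neighbours. The first, chr7:128535480, read 73.8%, 23.5% and 9.64% in Tet1 null, 4.59%, 24.6% and 20.0% in double heterozygous, 4.60%, 2.66% and 4.96% in Tdg heterozygous and 6.13%, 15.2% and 9.88% in control adenomas. There Tet1 null values overlapped those of double heterozygous and control adenomas, and the Tet1 null mean of 35.6% was 16.6% without adenoma 1. The second, chr7:128536471, read 6.99%, 12.9% and 10.8% in Tet1 null adenomas and 1.32 to 3.54% in heterozygous ones, without overlap. In the run on chromosome 15 with 5 members, the first member, chr15:85565256, read 1.20%, 1.56% and 3.09% in Tet1 null adenomas and at most 0.37% in heterozygous ones, while its other 4 members averaged under 0.1% in each genotype.

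**Figure D4:**
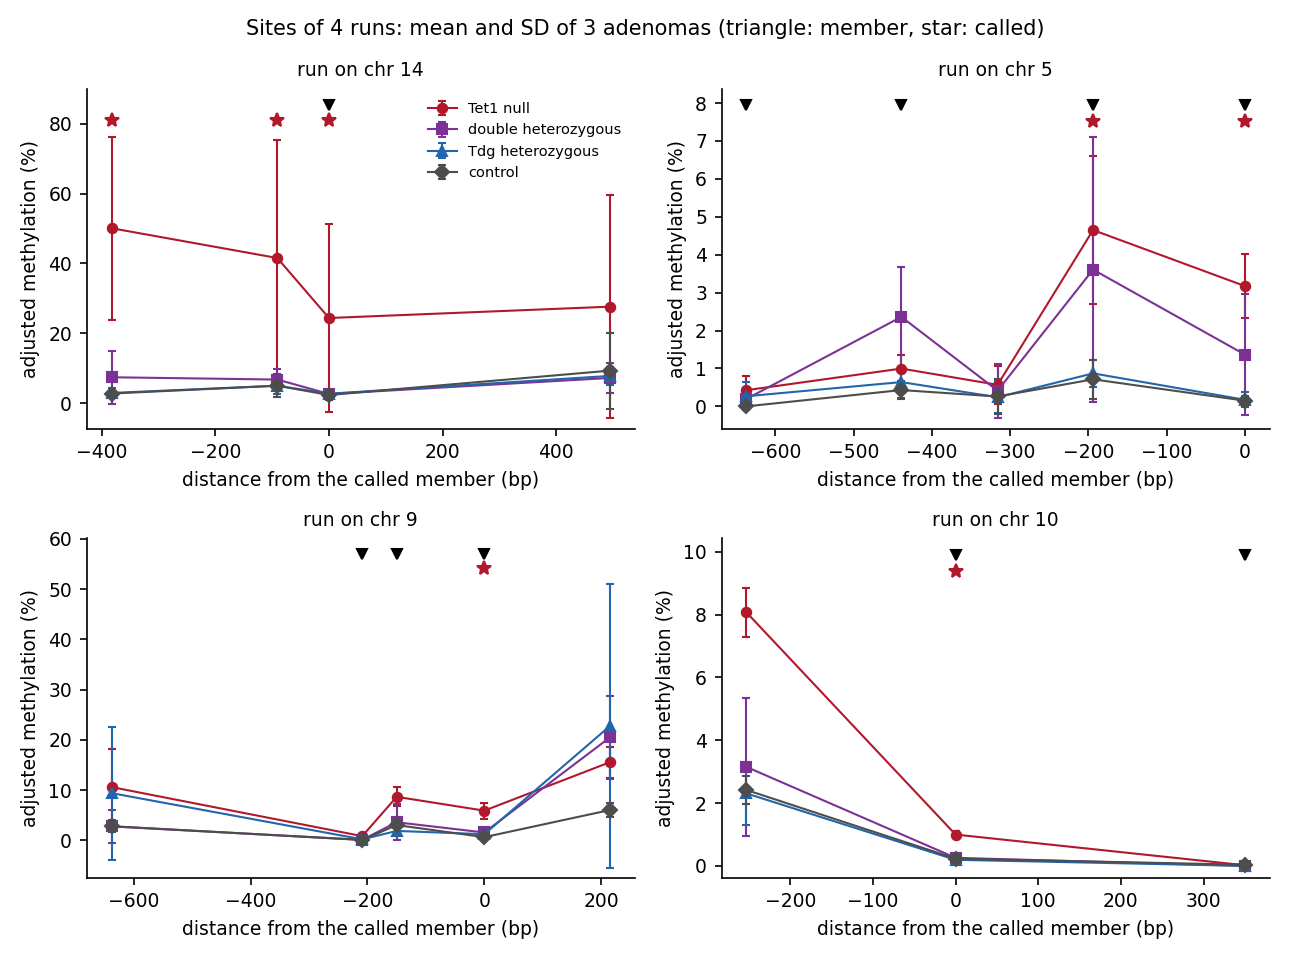
Adjusted methylation (%) of the sites with at least 50 reads in 11 adenomas in 4 runs with called members, against distance in bp from a called member; lines give the mean and bars the SD of 3 adenomas, triangles mark members and stars sites called in Tet1 null against both heterozygous genotypes. In the run on chromosome 10 the Tet1 null mean is 8.07% at the outer site, 0.997% at the called member and 0.0200% at the last member.

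The runs with most members were low on average. The run on chromosome 13 from 55311981 to 55313342 (mm9) held 9 members that averaged 0.284% in Tet1 null, 0.453% in double heterozygous, 0.843% in Tdg heterozygous and 0.515% in control adenomas. Runs of 8 members on chromosome 16 (35155068 to 35156573) and chromosome 4 (123341364 to 123342616) averaged 0.924% and 0.115% in Tet1 null adenomas, 0.554% and 0.0304% in double heterozygous, 0.492% and 0.0529% in Tdg heterozygous and 0.390% and 0.0258% in control adenomas. Of the chromosome 16 run, chr16:35156323 read 1.48%, 2.36% and 3.56% in Tet1 null, 0.73%, 2.85% and 0 in double heterozygous, 0.48%, 1.88% and 1.04% in Tdg heterozygous and 0.09%, 0.69% and 0.45% in control adenomas, with overlap between Tet1 null and both heterozygous genotypes. None of these 25 members was called between mutants. In Tet1 null against both heterozygous genotypes 0.916% of tested members and 2.3% of all tested sites were called. At such shares 25 members are too few to set these runs apart. Of all runs, the highest heterozygous level was at the single member chr15:72377360, with a mean of 9.10% in Tet1 null, 13.2% in double heterozygous, 4.98% in Tdg heterozygous and 4.31% in control adenomas.

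Double heterozygous and Tdg heterozygous adenomas, which differ in 1 Tet1 allele, were not told apart at any member. They also differed in sex: 3 double heterozygous adenomas were male by Y reads, against 1 Tdg heterozygous adenoma. The shallow adenoma is double heterozygous. By edgeR 0 members were called, as were 0% of all tested sites; 47 members had an unadjusted p under 0.05 (2.87% of all tested sites did), and limma called 0 on either scale. The smallest p was at chr15:79634338, with 3.23%, 15.2% and 8.87% in double heterozygous and 1.01%, 1.67% and 3.16% in Tdg heterozygous adenomas (adjusted p = 0.879, edgeR). In the other direction the smallest p was at chr18:74602409, which read 0 in all 3 double heterozygous adenomas and 0.60%, 0.93% and 0.77% in Tdg heterozygous ones (adjusted p = 0.977, edgeR). Values at these 2 sites did not overlap, but the sites were picked for the smallest p in these same values and neither passed. No member was lower in Tet1 null adenomas by the test; the smallest p in that direction was at chr2:33487096, which read 0 in all 3 Tet1 null adenomas and 0 to 0.56% in the heterozygous ones (adjusted p = 0.0889, edgeR).

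Control levels chose the class, so no test against control is given. As a description, chr14:69955761 averaged 9.95 ± 2.04% in Tet1 null, 4.46 ± 2.63% in double heterozygous, 3.39 ± 1.77% in Tdg heterozygous and 2.66 ± 0.680% in control adenomas. The control limit itself cut through a continuum. Just inside it, chr7:144501273 (4.88% in control), chr15:87374744 (4.84%) and chr4:129168473 (4.74%) averaged 3.10%, 7.19% and 7.81% in Tet1 null adenomas. Just outside, chr2:33495990 (5.02%), chr4:120725738 (5.23%) and chr8:90185089 (5.26%) averaged 3.74%, 9.68% and 3.62%.

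Of the 143 promoters matched by site spacing, 72 held 94 members. In 63 of the 72 the mean of their members was below 1% in every adenoma. Dnmt3a, which encodes a de novo DNA methyltransferase, had 2 members that averaged 0.0167% in Tet1 null, 0 in both heterozygous genotypes and 0.0600% in control adenomas. Of the 72 promoters, 1 held a called member, that of Zfp335os, and 7 had a Tet1 null mean of 1% or more. In that comparison, Tet1 null against both heterozygous genotypes, 0.916% of tested members and 2.3% of all tested sites were called. The count of 1 does not set promoters apart from other members. The member at the start of Ctnna2, a catenin of neurons that links cadherins to actin, read 2.30%, 6.09% and 3.18% in Tet1 null adenomas. It read 0.42%, 1.33% and 0 in double heterozygous, 1.66%, 1.61% and 1.95% in Tdg heterozygous and 0.38%, 2.14% and 1.24% in control adenomas, and the Tet1 null values lay above all others without passing the test (adjusted p = 0.348, edgeR). At Tafa5, which encodes a secreted protein, the member read 4.70%, 2.64% and 14.2% in Tet1 null adenomas and 0.79 to 10.3% in heterozygous ones. The 3 members of Kcnj4, an inward-rectifier potassium channel gene, averaged 1.15 ± 0.292% in Tet1 null, 0.514 ± 0.447% in double heterozygous, 0.954 ± 0.676% in Tdg heterozygous and 0.512 ± 0.263% in control adenomas, with overlap between Tet1 null and Tdg heterozygous values.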

How the data were processed

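DNA methylation was read at CCCGGG sites after SmaI and then XmaI digestion of DNA spiked with standards, per the labels' protocols. The submitters' processing notes name Trim Galore, Bowtie2 and the build mm9; the protocol text names a rat build, while the site names in the deposited files carry mm9. For each site the deposited files give counts of methylated and of unmethylated reads, and 2 percent values: the raw level and the level that the authors adjusted with the standards, per the labels. Sites under the stated minimum of 100 reads are also listed.

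Neighbours were counted over all listed sites. Autosomal sites with 100 reads in 11 adenomas, 10 or more in double heterozygous adenoma 3 and reads of both states (14964, of which 2183 were members) entered edgeR 4.0.16 (R 4.3.3), whose quasi-likelihood test was applied to both counts, with 1 depth coefficient per adenoma and a methylation coefficient per genotype, all 12 adenomas in 1 fit, no trend, common dispersion 0.106, two-sided, Benjamini-Hochberg adjusted over all tested sites at 0.05. Differences are given in points of the adjusted percentage. Members that were not tested had no methylated read (588) or too few reads in the shallow adenoma (1). Where an adenoma gave 1 value, exact permutation tests were used (scipy 1.17.1). Intervals and limits from a count of 0 cover counting error only, since no molecular identifiers are named. Alternatives were limma 3.58.1, fitted to log2 ratios of methylated to unmethylated counts (2 reads added to each) or to the logit of the adjusted level, depth minimums of 50 and 300 reads, other class limits, sex from Y reads, the replicate number as a block and leaving out each adenoma. The comparisons with 1 or 2 neighbours and within runs, the non-overlap counts and the gene names were added after seeing the data. No test against control is given. The tests were also run on simulated counts that gave every site the same spread between adenomas. That run cannot show how the tests behave at sites where a single adenoma stands out.

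Named sites were up to 10 called members per direction with the largest difference per comparison of mutants, or the 3 with the smallest p where none was called, members that differed most from control, given as levels with no test, 9 runs and 6 sites beside the control limit; other members named were chosen after their values were seen, among them those of runs and promoters. Members and lists were chosen with earlier results of these data known. No genome of the mm9 build was used. RefSeq promoters (GRCm38.p6) with 3 or more CCCGGG sites (158) were matched to listed sites by the distances between their sites, with no conversion of coordinates: 143 matched at 1 place, on the chromosome the promoter table gives in 143 of them, 13 at several and 2 at none. Gene names rest on that match. Adenomas of a genotype differed at 24.2 to 44.7% of tested sites (chi-square), so none looked like a library deposited more than once. Figures were drawn with matplotlib 3.10.9.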

Additional observations from a re-analysis of the deposited data

Results flagged for a closer look

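Tet1 null adenomas differed from the other mutants at some members by a test of the difference itself (edgeR, adjusted p under 0.05). Tet1 null and Tdg heterozygous adenomas differed at 16 members, all higher in Tet1 null, and Tet1 null and double heterozygous adenomas at 7 members, again all higher in Tet1 null. These are 0.733% and 0.321% of the tested members, where 2.05% and 0.895% of all tested sites were called.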

How the results depend on the processing

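Counts of called members moved as follows. For Tet1 null against Tdg heterozygous adenomas (16 members), limma gave 6 on log2 ratios and 4 on the adjusted level, a 250 bp window 3, at least 4 neighbours 5, and leaving out 1 adenoma 9 to 20. Against double heterozygous adenomas (7), limma gave 1 and 4, a control limit of 2% 3, a 250 bp window 1, at least 4 neighbours 2, and leaving out 1 adenoma 2 to 7. Against both heterozygous genotypes (20), 100 reads in all 12 adenomas gave 13, limma 5 and 9, a 250 bp window 4, at least 4 neighbours 5, and leaving out 1 adenoma 10 to 26. Narrower class limits also hold fewer members. Counts against control are not given, since control levels chose the class. Requiring methylated reads outside Tet1 null, added after seeing the data, gave 15, 7 and 18 for these 3 comparisons. With sex as a covariate the counts were 13, 5 and 15.

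The adenomas' replicate numbers did not pair: same-numbered adenomas correlated at -0.189 to 0.381. With a replicate block the counts were 9 against Tdg heterozygous and 11 against both heterozygous genotypes; it moved no other count by over 1.5 times.

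The difference of 0.105 points in the members' mean became 0 as a median and 0.0939 to 0.125 when 1 adenoma was left out; with 2 Tet1 null adenomas no permutation test reaches 0.05. The share at 5% or more (0.625 points) became 0.560 with 1 value per run, 0.241 at a control limit of 2%, 0.105 with a 250 bp window, 0.340 with at least 4 neighbours, 0.0481 for a share at 15%, and 0.541 to 0.758 when 1 adenoma was left out. The excess of sites with 1 or 2 neighbours became 0.0200 as a median and 0.274 to 0.356 when 1 adenoma was left out. For outer sites it was 0.0200 as a median, 0.0492 at 300 reads and 0.173 to 0.210 when 1 adenoma was left out. For sites with no neighbour (0.105) it reversed to -0.0146 at 300 reads, was 0.347 with a 250 bp window (unadjusted exact p = 0.0238), and ran from 0.0525 to 0.144 when 1 adenoma was left out. The cause was not tested. The 42 comparisons at named members include uncalled ones, which had no call to lose. Most of the called ones lost their call with limma, 15 on log2 ratios and 19 on the adjusted level. Depth limits the shallow double heterozygous adenoma most.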
